A study of Mus musculus with 16 samples.

Results

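The cells sorted as stem cells from the mouse femur, periosteal stem cells (PSC) and endosteal mesenchymal stem cells (MSC), were set against the cells sorted as progenitors, periosteal progenitor population type 1 (PP1) and type 2 (PP2). All 16 libraries of the series entered, 8 of stem sorts and 8 of progenitor sorts, with the 4 groups of 4 libraries weighted equally. The deposited table holds 22559 genes, of which 13797 were tested because 4 or more libraries had them at a normalized count of 10 or higher. A gene was taken as shared when it passed the test and differed in the same direction in all 4 pairs of a stem sort with a progenitor sort (PSC and MSC, each against PP1 and PP2), which held for 4286 genes. A normalized count here is a gene's read count divided by 1 scaling factor per library.

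All groups came from C57/B6 mice of genotype CTSK-cre+ mTMG at postnatal day 6, from the same litter and the same day, with no pooling. The mTmG allele replaces membrane Tomato by membrane GFP (mGFP) in cells, and in the descendants of cells, in which the Ctsk promoter has driven Cre. In the published description of these populations PSC, PP1 and PP2 are mGFP-positive and are separated with CD200 and CD105, while the MSC label names mGFP-negative cells. The stem groups therefore join a Ctsk-lineage sort and a lineage-negative sort, whereas both progenitor groups are Ctsk-lineage, and the Ctsk promoter is also active in osteoclasts. No label says that libraries of 1 group come from different animals. The spread behind each p-value is therefore that between libraries and may be technical.

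Long bones of this age grow by endochondral ossification. Chondrocytes of the growth plate divide, leave the cell cycle, pass through a prehypertrophic stage marked by Ihh and the receptor Pth1r, and enlarge into hypertrophic cells that make type X collagen and mineralize their matrix. The periosteum that wraps the bone has an outer fibrous layer of fibroblasts and an inner layer of bone-forming cells, while tendon lies outside it. Adventitial-type fibroblasts are marked in other mouse tissues by Dpt, Pi16, Cd34 and Ly6a. Where cells with these transcripts lie in the femur was not tested.

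Recovered reads per library numbered 22306403 to 48356249. Of the genes tested, 0.428% to 0.536% were at 0 in MSC libraries, 4.49% to 8.28% in PSC, 8.79% to 10.9% in PP1 and 7.84% to 16.4% in PP2, where replicates 1 and 3 stood apart. Among transcripts tied to the sort, Cd200, whose protein separates the sorts, averaged 6098 in PSC, 4177 in MSC, 819 in PP1 and 2031 in PP2. Eng, which encodes CD105, averaged 376 in PSC, 469.7 in MSC, 715 in PP1 and 4649.6 in PP2, so that the high values were those of PP2. Ctsk averaged 2751 in PSC, 2082 in MSC, 12338 in PP1 and 7393 in PP2. Its values were lower in all 8 stem libraries than in all 8 progenitor libraries, and the mGFP-negative MSC libraries carried Ctsk reads too. Cd200 and Eng are no finding here.

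Most genes on the lists for growth plate cartilage, mineralization, cholesterol synthesis and immediate early response were higher in the stem sorts than in either progenitor sort, and nearly all on the list for adventitial-type fibroblasts were lower. In the test of the 8 stem against the 8 progenitor libraries 4956 of 13797 genes passed an adjusted p of 0.05 (limma, Benjamini-Hochberg over all genes tested), 2892 higher in stem (21% of genes) and 2064 lower (15%). Of these calls 86.5% shared a direction in all 4 pairs, 2464 genes higher (17.9%) and 1822 lower (13.2%), while 670 did not. A difference of over 2-fold was found for 1365 of the shared higher genes and 828 of the shared lower genes. A stricter set passed the test in each of the 4 pairs on its own: 556 genes higher (4.03%) and 611 lower (4.43%). The values of the 8 stem libraries lay wholly above those of the 8 progenitor libraries for 515 genes (3.73%) and wholly below for 628 (4.55%). The median log2 difference over all genes was 0.15, and with edgeR on recovered reads it was 0.05.

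The split between stem and progenitor sorts was the main split between groups. On the log2 scale it took 25.4% of the sum of squares over all genes tested, against 12% for PSC against MSC, 8.03% for PP1 against PP2 and 54.5% within groups. Over the 8635 genes with a mean of at least 200 normalized counts the same shares were 41.9%, 17%, 5.57% and 35.5%. In bulk libraries fewer cells of a type and less RNA per cell cannot be told apart, here or in any comparison that follows.

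Genes to describe singly were ranked by the smallest of their 4 pair differences among genes without overlap between the 8 stem and 8 progenitor libraries, 353 higher and 482 lower at a mean of at least 200. At the top stood Serpina1b and Serpina1d, which encode alpha-1-antitrypsin, a serine protease inhibitor. Serpina1b was 452, 231, 53.3 and 609.7 in PSC, 183, 232, 302 and 474 in MSC and 0 in all 8 progenitor libraries. Against a floor of 3 reads per library it was at least 97.9-fold higher in stem sorts (adjusted p = 2.73e-09). Serpina1d was likewise at 0 in all progenitor libraries and at least 78.4-fold higher (adjusted p = 5.91e-09). The Serpina1 genes are near-identical neighbours on chromosome 12, so the split of reads among them is uncertain. Coagulation factor V (F5) ran from 287 to 911 (median 548) in the 8 stem libraries and from 0 to 81.1 (median 32.4) in the 8 progenitor libraries (46.7-fold, log2 difference 5.54 ± 0.93, adjusted p = 0.000102). The protease inhibitor alpha-2-macroglobulin (A2m) ran from 508 to 2248 (median 808) in the 8 stem libraries and from 24.6 to 282 (median 83.3) in the 8 progenitor libraries (10.6-fold, log2 difference 3.41 ± 0.46, adjusted p = 9.1e-06). F5 was at 0 in 3 progenitor libraries, so its fold rests on the pseudocount, and the ratio of its mean normalized counts was 15, against 8.99 for A2m.

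Col10a1, the hypertrophic collagen, was 90027, 135818, 81038 and 98898 in PSC and 33724, 51261, 32495 and 42622 in MSC. It was 13072, 951, 3510.1 and 1465 in PP1 and 6088, 286, 15867 and 109 in PP2, so that the progenitor libraries differed among themselves by far more than the stem libraries (32.3-fold, log2 difference 5.01 ± 0.77, adjusted p = 4.08e-05). Matn1, a cartilage matrix protein, ran from 56635 to 315432 (median 121882) in the 8 stem libraries and from 4321 to 24339 (median 10115) in the 8 progenitor libraries (11.6-fold, log2 difference 3.53 ± 0.27, adjusted p = 4.33e-09). Alpl, the alkaline phosphatase that frees phosphate for mineralization, ran from 11833 to 18866 (median 14114) in the 8 stem libraries and from 2188 to 3125 (median 2304) in the 8 progenitor libraries (5.95-fold, log2 difference 2.57 ± 0.09, adjusted p = 3.76e-13). Prkg2, a cGMP-dependent kinase that acts on growth plate chondrocytes downstream of C-type natriuretic peptide, ran from 2091 to 4106 (median 2569) in the 8 stem libraries and from 98.6 to 355 (median 203) in the 8 progenitor libraries (13.8-fold, log2 difference 3.79 ± 0.25, adjusted p = 5.91e-10). The ratio of mean normalized counts was 13.7 for Col10a1, 11.8 for Matn1, 5.98 for Alpl and 12.8 for Prkg2, so that the value for Col10a1 alone of these lay far below its fold on the log scale. The Iroquois transcription factor Irx5 ran from 572 to 1589 (median 1060.5) in the 8 stem libraries and from 0 to 151 (median 71.9) in the 8 progenitor libraries (33.8-fold, log2 difference 5.08 ± 0.95, adjusted p = 0.000322). Its neighbour on chromosome 8, Irx3, chosen after its values were seen, averaged 402 in PSC, 458 in MSC, 59.6 in PP1 and 112 in PP2 (5.68-fold, adjusted p = 4.72e-06). Il6ra, which encodes the interleukin-6 receptor (22.9-fold, adjusted p = 5.22e-05), Car8, a carbonic anhydrase-related protein (7.79-fold, adjusted p = 2.52e-10), and Fabp7, a fatty acid binding protein that also stands on the Schwann cell list (19.1-fold, adjusted p = 0.000164), completed the 12. Irx5, Fabp7 and Il6ra were also at 0 in 1 or more progenitor libraries, and the ratios of their mean normalized counts were 15.3, 9.51 and 13.1.

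Of the 12 genes lower in the stem sorts, those of matrix proteins are given first. Dermatopontin (Dpt), an extracellular matrix protein, was 0, 33.2, 51.3 and 49.9 in PSC and 78.1, 50.6, 59.9 and 43.4 in MSC. It was 11462, 8023, 6064 and 5946 in PP1 and 14739, 9299, 8840.0 and 7454 in PP2, far above every stem library (272-fold, log2 difference -8.09 ± 0.58, adjusted p = 1.87e-09), with 1 stem library at 0 and a ratio of mean normalized counts of 196. Clec3b, which encodes tetranectin, ran from 65.4 to 193 (median 129) in the 8 stem libraries and from 7712 to 17438 (median 10130.3) in the 8 progenitor libraries (90.6-fold, log2 difference -6.50 ± 0.21, adjusted p = 1.31e-13). The microfibril protein gene Mfap5 ran from 97.8 to 511 (median 200.1) in the 8 stem libraries and from 7928 to 18006 (median 10271) in the 8 progenitor libraries (50.8-fold, log2 difference -5.67 ± 0.23, adjusted p = 1.04e-12). Tnxb, which encodes tenascin-X of loose connective tissue, ran from 93.5 to 417 (median 311) in the 8 stem libraries and from 11151 to 28972 (median 14192) in the 8 progenitor libraries (57.3-fold, log2 difference -5.84 ± 0.24, adjusted p = 1.27e-12). Clec3b, Mfap5 and Tnxb had reads in all 16 libraries, and their ratios of mean counts, 88.1, 45.5 and 55.5, were close to these folds. Ly6a, which encodes the surface protein Sca-1, ran from 18.6 to 91.5 (median 39.8) in the 8 stem libraries and from 1507 to 3103 (median 2125) in the 8 progenitor libraries (50.9-fold, log2 difference -5.67 ± 0.27, adjusted p = 6.02e-12), and the homology of the Ly6 family makes the assignment of its reads less certain. Il33, a cytokine of stromal cells, was at most 25.6 in any stem library and at least 205 in any progenitor library (adjusted p = 1.36e-06).

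Like Dpt and Il33, the other lower genes of the 12 were at 0 in at least 1 stem library, so the size of their fold rests on the pseudocount. Col6a6, a chain of type VI collagen, was at 0 in 3 PSC libraries and at 38.5 at most in any stem library, against 1093 or more in progenitor libraries (adjusted p = 8.45e-10). Ly6h had no read in any PSC library, which put it at least 63.1-fold lower than in PP1 and at least 159.8-fold lower than in PP2. Gpr1, a chemerin receptor, Spink2, a protease inhibitor, Hmcn2, which encodes a hemicentin of the extracellular matrix, and Chodl, which encodes chondrolectin, had adjusted p-values of 5.27e-07, 5.91e-06, 3.77e-05 and 2.36e-06. None of the 24 ranked genes reversed or lost its call in any alternative setting in which it was tested. The 24 were ranked by their differences in these same libraries, so this is no independent support.

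**Figure D1:**
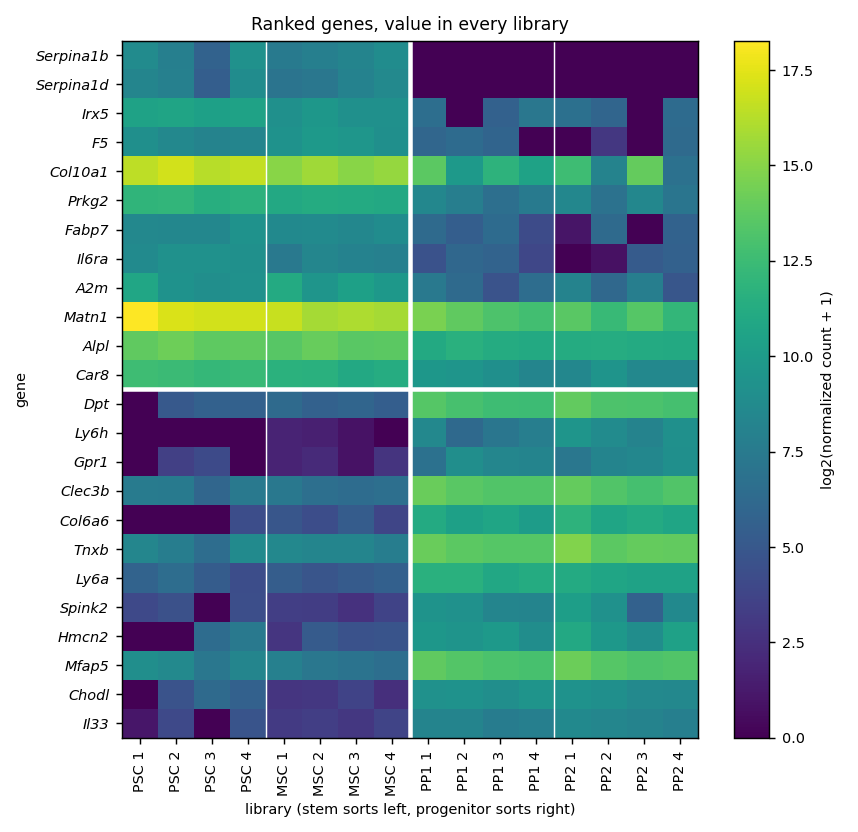
Each row is 1 of the 24 ranked genes and each column 1 library, with colour giving log2(normalized count + 1). Each of the 12 upper genes is brighter in the 8 stem libraries on the left than in the 8 progenitor libraries on the right. Each of the 12 lower genes is the reverse, and Serpina1b and Serpina1d are at 0 in all 8 progenitor libraries. The colour scale is common to all rows.

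Growth plate genes were compared as lists. Of 23 chondrocyte genes 21 were shared higher and 0 lower, with a median log2 difference of 1.46, and 18 passed in each of the 4 pairs. Of 14 hypertrophic chondrocyte genes 14 were shared higher and 0 lower (median 2.22), 11 of them in each pair. Over all genes tested the shared shares were 17.9% higher and 13.2% lower, and the median was 0.15. Without PP2 replicates 1 and 3 the counts were 21 and 14. Ucma, a secreted cartilage protein (log2 difference 0.04 ± 0.11), and Trps1, a transcription factor (0.29 ± 0.14), were the chondrocyte genes not shared. Trps1 passed the test without PP1 replicate 3 (adjusted p = 0.0362).

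Genes of earlier cartilage stages were higher by moderate folds. Sox9, the master transcription factor of cartilage, ran from 7356 to 16482 (median 10343) in the 8 stem libraries and from 2140.3 to 3974 (median 3011) in the 8 progenitor libraries (3.76-fold, log2 difference 1.91 ± 0.15, adjusted p = 8.81e-09). Acan, the main cartilage proteoglycan, averaged 138369 in PSC, 156249 in MSC, 54263 in PP1 and 52272 in PP2 (2.75-fold, adjusted p = 2.58e-09). Fgfr3, the receptor that restrains chondrocyte proliferation, averaged 14644 in PSC, 7203 in MSC, 2865 in PP1 and 2127 in PP2 (4.18-fold, adjusted p = 3.75e-12). Each of these was higher in both stem sorts. Col2a1, the main collagen of cartilage, was 3756738, 2636663, 2404087 and 1990613 in PSC and 6454222, 5058297, 7757782 and 5228462 in MSC. It was still 967016, 1146836, 1246568 and 1089932 in PP1 and 1657810.0, 1370298, 1832409.5 and 1566600.1 in PP2 (2.99-fold, log2 difference 1.58 ± 0.24, adjusted p = 4.03e-05). All 16 libraries therefore held abundant Col2a1, and the progenitor sorts were not free of cartilage transcripts.

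Prehypertrophic and hypertrophic genes had a higher median difference, with a wide range of folds. Ihh, the hedgehog ligand of prehypertrophic chondrocytes, was 22910.5, 26139, 21191 and 24904 in PSC and 4972, 6176, 4702 and 5303 in MSC. It was 2715, 1417, 3344 and 2118 in PP1 and 502, 216, 1159 and 333 in PP2 (11-fold, log2 difference 3.45 ± 0.24, adjusted p = 1.34e-09). Every stem library lay above every progenitor library, with PSC highest. Pth1r, the receptor through which parathyroid hormone-related peptide delays hypertrophy, ran from 16524 to 65112 (median 37828) in the 8 stem libraries and from 6329 to 9998 (median 8291) in the 8 progenitor libraries (4.19-fold, log2 difference 2.07 ± 0.10, adjusted p = 6.46e-12). Panx3, a channel protein of prehypertrophic cells and osteoblasts, averaged 32214 in PSC, 8113 in MSC, 3257 in PP1 and 1390.0 in PP2 (8.08-fold, adjusted p = 2.25e-10). Mef2c, a transcription factor required for hypertrophy in mouse, averaged 6191 in PSC, 3337 in MSC, 1041 in PP1 and 1229 in PP2 (4.05-fold, adjusted p = 1.4e-10). Foxa2, another factor of hypertrophy in mouse, averaged 1143 in PSC, 572 in MSC, 182 in PP1 and 199 in PP2 (5.14-fold, adjusted p = 0.000116). Mmp13, the collagenase of the last hypertrophic cells, was highest in MSC and averaged 11323 in PSC, 35147 in MSC, 9897 in PP1 and 8632 in PP2 (2.3-fold, adjusted p = 0.00016), but PSC against PP1 did not pass on its own (adjusted p = 0.566).

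**Figure D2:**
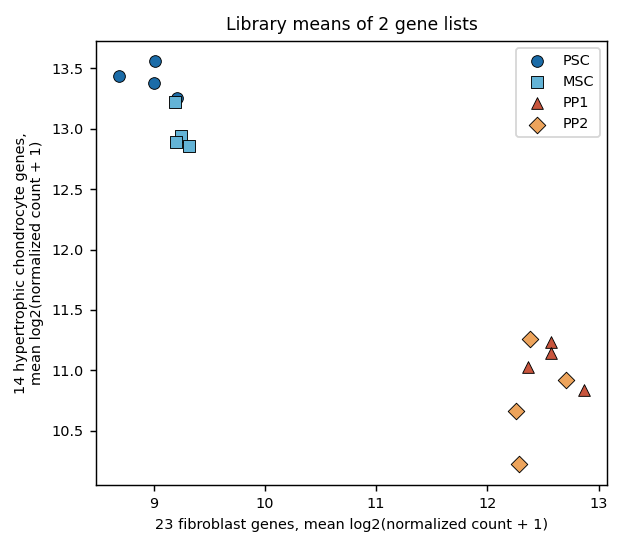
Each point is 1 library, placed by its mean log2(normalized count + 1) over 23 fibroblast genes (horizontal) and over 14 hypertrophic chondrocyte genes (vertical). The 8 stem libraries sit at the upper left, with hypertrophic means of 12.86 to 13.56, and the 8 progenitor libraries at the lower right, with 10.22 to 11.26.

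Promoter windows of 3 of these genes are shown because TATAAA, the core of the TATA box, was frequent on the hypertrophic list. The windows run from 250 bases before to 50 after the gene's start (RefSeq, GRCm38.p6), 5′ to 3′ on the gene's strand, with TATAAA and TGTGGT on either strand in capitals. TGTGGT is the core bound by Runx factors. Promoters were found for 11 of the 14 hypertrophic and 15 of the 24 osteoblast genes.

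Col10a1, chr10:34389731-34390030, plus strand: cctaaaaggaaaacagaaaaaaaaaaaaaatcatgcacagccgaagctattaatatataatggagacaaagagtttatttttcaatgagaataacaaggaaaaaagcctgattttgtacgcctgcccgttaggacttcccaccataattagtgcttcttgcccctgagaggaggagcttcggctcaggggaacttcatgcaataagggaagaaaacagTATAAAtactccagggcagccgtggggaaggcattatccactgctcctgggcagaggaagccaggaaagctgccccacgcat
Mmp13, chr9:7272264-7272563, plus strand: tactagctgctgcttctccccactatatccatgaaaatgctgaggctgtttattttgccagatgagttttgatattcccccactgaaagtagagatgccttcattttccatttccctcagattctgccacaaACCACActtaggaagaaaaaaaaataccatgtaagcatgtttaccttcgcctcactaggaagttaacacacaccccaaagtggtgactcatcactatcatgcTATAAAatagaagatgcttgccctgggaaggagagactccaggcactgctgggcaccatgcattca
Ibsp, chr5:104299037-104299336, plus strand: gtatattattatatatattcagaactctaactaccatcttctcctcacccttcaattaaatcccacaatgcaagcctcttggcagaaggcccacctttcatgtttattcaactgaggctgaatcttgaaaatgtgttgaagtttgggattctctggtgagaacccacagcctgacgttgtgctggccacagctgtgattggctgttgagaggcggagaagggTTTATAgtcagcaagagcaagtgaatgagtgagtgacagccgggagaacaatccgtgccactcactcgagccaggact

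TATAAA stood in a window of 7 of 11 hypertrophic genes (63.6%) and 6 of 15 osteoblast genes (40%), against 9.05% of 10250 genes tested with a promoter in the table. TGTGGT stood in 4 of 11 and 8 of 15, against 14.7% (36.4% and 53.3%). Over the strict sets of genes called in each pair the TATAAA share was 13.4% of higher and 10.4% of lower genes, and the TGTGGT share 16.1% of both. A gene with several windows counted once if any window held the letters, and a match is a description, not a binding site.

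Of 24 osteoblast and mineralization genes, 5 of which also stand on the hypertrophic list, 16 were shared higher and 2 lower (median 1.57). The gene of osterix, Sp7, a transcription factor that bone formation needs, ran from 2366 to 3734 (median 2913) in the 8 stem libraries and from 301 to 898 (median 547) in the 8 progenitor libraries (5.27-fold, log2 difference 2.40 ± 0.17, adjusted p = 1.73e-09). Smpd3, a sphingomyelinase that mouse skeletal mineralization needs, averaged 53235 in PSC, 25737 in MSC, 5817 in PP1 and 4872 in PP2 (6.99-fold, adjusted p = 1.81e-12). Dmp1 (6.5-fold, adjusted p = 4.93e-06) and Phex (5.64-fold, adjusted p = 7.02e-08), known from osteocytes and phosphate control, were higher too. The osteocyte transcript Mepe, near 0 in PP2, averaged 200.2 in PSC, 172 in MSC, 144 in PP1 and 2.09 in PP2 (adjusted p = 0.00433), and 3 of the PP1 libraries lay within the range of the stem libraries. The collagen of bone went the other way: Col1a1 averaged 807272 in PSC, 924067 in MSC, 1785488 in PP1 and 1535658 in PP2 (1.98-fold lower, adjusted p = 0.00282) and Col1a2 was 2.25-fold lower (adjusted p = 0.000373). Bglap, the osteocalcin gene, passed in the 4-group fit (adjusted p = 0.00199) but was not shared and lost the call in a fit of 2 groups of 8 (adjusted p = 0.103), with means of 1273 in PSC, 1072 in MSC, 1454 in PP1 and 188 in PP2, and its near-identical copies make its reads uncertain. With edgeR on recovered reads 14 of the list were shared higher.

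In the hedgehog pathway the ligands were higher in stem sorts and most reception genes were not. Of 16 genes 4 were shared higher and 5 lower (median -0.21). Besides Ihh, the shared higher genes were the ligand Dhh, low in progenitors (means 93 in PSC, 424 in MSC, 26.7 in PP1 and 7.31 in PP2, adjusted p = 0.000126), the transporter gene Disp1, and Ptch1, the receptor and target gene. Ptch1 ran from 2690.3 to 5815 (median 4423) in the 8 stem libraries and from 931 to 2360.3 (median 1987) in the 8 progenitor libraries (2.22-fold, log2 difference 1.15 ± 0.15, adjusted p = 8.33e-06). Its stem and progenitor libraries did not overlap. The co-receptor Gas1 was lower, at 1846 in PSC, 10892 in MSC, 15507 in PP1 and 15368 in PP2 (3.49-fold, adjusted p = 1.16e-10), with MSC far above PSC. Boc, another co-receptor, averaged 2501 in PSC, 5716 in MSC, 6876 in PP1 and 7987 in PP2 (1.97-fold, adjusted p = 3.42e-06), and the signal transducer Smo 8024 in PSC, 9815 in MSC, 12355 in PP1 and 11817 in PP2 (1.36-fold, adjusted p = 2.41e-05). Gli1, the usual target readout, did not pass (log2 difference -0.18 ± 0.22, adjusted p = 0.558).

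Fibroblast genes formed the list with the lowest median in stem sorts. Of 23 genes of adventitial-type fibroblasts 22 were shared lower and 0 higher (median -3.25), and 21 passed in each pair. Cd34, a surface sialomucin of such fibroblasts and of blood stem cells, was 546, 247, 241 and 475 in PSC and 602, 564, 685 and 804 in MSC. It was 14693, 10169.9, 7893 and 10784 in PP1 and 16871, 11396, 9525 and 12222 in PP2 (23.6-fold, log2 difference -4.56 ± 0.17, adjusted p = 7.69e-13). The lowest progenitor library, at 7893, was far above the highest stem library. Igfbp6, a binding protein of insulin-like growth factor II, ran from 245 to 914 (median 541) in the 8 stem libraries and from 8168 to 22129 (median 12271) in the 8 progenitor libraries (24.1-fold, log2 difference -4.59 ± 0.17, adjusted p = 4.95e-13). Pi16 averaged 18.6 in PSC, 15.1 in MSC, 698 in PP1 and 467 in PP2 (32.5-fold, adjusted p = 1.67e-09). Dpp4 had no read in PSC, which put it at least 147-fold lower than in PP1 and at least 67.7-fold lower than in PP2, and it averaged 15.7 in MSC. Smaller differences were found for the proteoglycan Dcn (2-fold, adjusted p = 2.62e-07) and for Lum (1.36-fold, adjusted p = 0.000505), both abundant in all sorts. Anxa3 was the member that did not pass (log2 difference 1.08 ± 0.44), though edgeR on recovered reads called it higher (adjusted p = 0.0249), as did limma without PSC replicate 1, PP1 replicate 1 or PP2 replicate 4 (adjusted p = 0.005 to 0.0474).

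Genes used in the field to mark skeletal stem and progenitor cells did not rise together in the sorts labelled as stem cells. Of 20 surface marker genes 4 were shared higher and 9 lower (median -0.74). Leaving out Cd200 and Eng, whose proteins separate PSC, PP1 and PP2, the counts were 3 and 8 of 18. The proteins of other genes named here may also have entered the sort, Thy1, Enpep, Itgav and Itga6 among them. Their part in these counts was not tested. Those higher were Cd200, Alcam, Cspg4 and Itga6, and those lower Ly6a, Cd34, Thy1, Pdgfra, Pdgfrb, Eng, Cd44, Vcam1 and Itgb1. Thy1, which encodes CD90, was low in all sorts, at 11.3 in PSC, 6.92 in MSC, 148 in PP1 and 77.8 in PP2 (adjusted p = 0.0126), and at 0 in 1 PP2 library. Pdgfra, the receptor of many mesenchymal progenitors, ran from 829 to 3479 (median 1921) in the 8 stem libraries and from 6309.7 to 10331 (median 7176) in the 8 progenitor libraries (4.58-fold, log2 difference -2.20 ± 0.15, adjusted p = 8.18e-10). Itgav, which encodes integrin alpha V, passed but did not share a direction (log2 difference 0.28 ± 0.08, adjusted p = 0.0109), and lost the call in a fit of 2 groups of 8 (adjusted p = 0.114). Enpep, which encodes aminopeptidase A, did not pass (adjusted p = 0.167), but did without PP2 replicate 1 (adjusted p = 0.00629). Among 17 other marker genes 5 were shared higher and 7 lower, and 3 and 7 with edgeR. Postn, which encodes the periosteal matrix protein periostin, averaged 3686 in PSC, 4959 in MSC, 47858 in PP1 and 38488 in PP2 (9.99-fold, adjusted p = 1.1e-11). Prrx1 and Prrx2, homeobox genes of limb mesenchyme, were 3.85-fold and 6.28-fold lower in stem sorts (adjusted p = 5.41e-09 and 7.67e-09).

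Tendon genes were more often lower than higher in stem sorts, with 8 of 16 shared lower and 2 higher (median -0.66). Tnmd, which encodes the tendon protein tenomodulin, ran from 1211 to 5426 (median 2367) in the 8 stem libraries and from 13037 to 30774 (median 18068) in the 8 progenitor libraries (7.43-fold, log2 difference -2.89 ± 0.15, adjusted p = 2.02e-11). Thbs4, a thrombospondin of tendon and muscle, averaged 617 in PSC, 1536 in MSC, 13872 in PP1 and 13151 in PP2 (14.4-fold, adjusted p = 2.49e-11), and Scx, the transcription factor scleraxis of the tendon lineage, 387 in PSC, 336 in MSC, 1305 in PP1 and 949.6 in PP2 (3.1-fold, adjusted p = 2.58e-07). The higher genes were Egr1 and Egr2, which also stand on the immediate early list. Articular surface genes split the stem sorts. Prg4, the joint lubricant gene, averaged 1772 in PSC, 49537 in MSC, 8977 in PP1 and 10726 in PP2, so that it lay below both progenitor sorts in PSC and above both in MSC, and the contrast of stem against progenitor did not pass (adjusted p = 0.935). Of the 9 genes of this list 3 were shared lower and 0 higher.

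Of 11 fibrillar collagens and their partners 7 were shared lower and 1 higher. Col3a1, the collagen of loose connective tissue, ran from 29918 to 82351 (median 47923) in the 8 stem libraries and from 245326 to 408180.0 (median 313529) in the 8 progenitor libraries (6.52-fold, log2 difference -2.71 ± 0.15, adjusted p = 8.07e-11). Col27a1, a cartilage collagen, averaged 13343 in PSC, 17551 in MSC, 3472 in PP1 and 3244 in PP2 (4.53-fold, adjusted p = 1.23e-10) and was the one shared higher. All 4 shared collagen VI chains of 5 tested were lower, from Col6a1 (1.67-fold, adjusted p = 2.1e-05) to Col6a6. Of 22 elastic fibre and microfibril genes 14 were shared lower and 3 higher. Fbn1, the main microfibril protein, averaged 2266 in PSC, 5153 in MSC, 14968 in PP1 and 15473 in PP2 (4.51-fold, adjusted p = 1.47e-10), and the higher ones were Efemp2 and the crosslinking enzymes Loxl3 and Loxl4 (Loxl4 4.35-fold, adjusted p = 4.63e-09). The small leucine-rich proteoglycans divided by tissue, with 8 of 13 shared lower and 3 higher. Aspn, which encodes the matrix proteoglycan asporin, averaged 3042 in PSC, 954 in MSC, 29511 in PP1 and 24416 in PP2 (16.4-fold, adjusted p = 4.73e-12). Epyc, Chad and Omd were the higher ones, with Epyc, a cartilage proteoglycan, at 36901 in PSC, 9415 in MSC, 4605 in PP1 and 1599.9 in PP2 (7.03-fold, adjusted p = 3.34e-10). Of 18 basement membrane genes 8 were shared lower, among them Nid1 (4.45-fold, adjusted p = 6.46e-11) and Lama2 (6.59-fold, adjusted p = 3.58e-12), and 5 higher (3 with edgeR), among them Hspg2, which encodes the cartilage-rich proteoglycan perlecan (1.65-fold, adjusted p = 0.000269).

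Enzymes that make and cut these matrices were divided too. Of 27 genes of sulfated glycosaminoglycan synthesis 14 were shared higher and 3 lower (median 0.28). Slc26a2, the sulfate transporter of cartilage, averaged 7064 in PSC, 3926 in MSC, 2506 in PP1 and 2153 in PP2 (2.28-fold, adjusted p = 9.06e-10), and Chst11, the chondroitin 4-sulfotransferase, 13722 in PSC, 10729.7 in MSC, 2987 in PP1 and 3159 in PP2 (3.9-fold, adjusted p = 1.43e-11). The lower ones were Chpf, Ext1 and Hs2st1, of which Ext1 and Hs2st1 act on heparan sulfate and Chpf lost its call without MSC replicate 1 (adjusted p = 0.0638), with voom (0.0659) and in a fit of 2 groups of 8 (0.094). Of 29 collagen processing and folding genes 11 were shared higher and 5 lower. Leprel1 and P4ha2, which encode prolyl hydroxylases of collagen, were 5.3-fold and 2.31-fold higher (adjusted p = 5.41e-10 and 8.03e-10). Among 26 matrix protease and inhibitor genes 6 were shared higher and 10 lower, with Adamts3, which removes the propeptide of type II collagen, 2.89-fold higher (adjusted p = 1.2e-07) and Adamts5, which cuts aggrecan, 4.96-fold lower (adjusted p = 3.07e-08).

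The enzymes of cholesterol synthesis rose together. Of 19 genes 18 were shared higher and 0 lower (median 1.72), 10 of them in each pair, and the counts were 18 without PP2 replicates 1 and 3 and 18 with edgeR. The exception was Ebp (log2 difference 0.23 ± 0.13, adjusted p = 0.19), which passed without PP2 replicate 1 (adjusted p = 0.0466). Idi1, the isopentenyl diphosphate isomerase, averaged 5972 in PSC, 2155 in MSC, 899.9 in PP1 and 1038 in PP2 (3.66-fold, log2 difference 1.87 ± 0.14, adjusted p = 2.68e-09). Sqle, the squalene epoxidase, ran from 1968 to 5692 (median 3449.8) in the 8 stem libraries and from 582 to 1431 (median 1028) in the 8 progenitor libraries (3.5-fold, log2 difference 1.81 ± 0.12, adjusted p = 8.03e-10). Sc4mol, a methylsterol oxidase, ran from 2308 to 12389 (median 5484) in the 8 stem libraries and from 618 to 2041 (median 1228) in the 8 progenitor libraries (5.02-fold, log2 difference 2.33 ± 0.15, adjusted p = 6.92e-10). In Sqle and Sc4mol the order of group means was PSC, MSC, PP1, PP2. PSC were above MSC as well for 18 of the 19 genes (background 12.1% of genes higher in PSC and 14.2% higher in MSC), so the list separated the stem sorts from each other and from the progenitors.

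The windows of 3 of these promoters show the CCAAT box, bound by the factor NF-Y, which acts beside the sterol-regulated factor Srebf2 at such genes. CCAAT and, in Hmgcs1, CACCCCAC (a core of sterol response elements) are in capitals on either strand.

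Hmgcs1, chr13:119690101-119690400, plus strand: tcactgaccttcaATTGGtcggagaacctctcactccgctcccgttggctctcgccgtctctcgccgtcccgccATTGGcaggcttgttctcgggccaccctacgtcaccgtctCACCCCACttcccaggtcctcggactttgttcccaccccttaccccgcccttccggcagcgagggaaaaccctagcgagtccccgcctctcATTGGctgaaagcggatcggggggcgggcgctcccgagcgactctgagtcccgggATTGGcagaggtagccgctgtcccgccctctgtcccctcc
Idi1, chr13:8885356-8885655, plus strand: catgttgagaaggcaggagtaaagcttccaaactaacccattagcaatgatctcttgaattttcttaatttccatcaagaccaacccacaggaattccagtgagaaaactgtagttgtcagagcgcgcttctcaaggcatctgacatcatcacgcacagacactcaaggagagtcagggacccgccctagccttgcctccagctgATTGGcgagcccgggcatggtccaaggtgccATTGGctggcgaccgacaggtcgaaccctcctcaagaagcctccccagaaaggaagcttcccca
Hsd17b7, chr1:169969156-169969455, minus strand: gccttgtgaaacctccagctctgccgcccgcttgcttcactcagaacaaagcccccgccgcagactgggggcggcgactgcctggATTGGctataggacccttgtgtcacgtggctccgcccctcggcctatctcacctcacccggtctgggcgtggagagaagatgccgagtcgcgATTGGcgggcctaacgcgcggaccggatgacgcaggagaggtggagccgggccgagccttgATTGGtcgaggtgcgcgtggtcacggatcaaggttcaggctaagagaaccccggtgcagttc

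CCAAT stood in a window of 13 of 13 list genes with a promoter in the table, against 42.9% of genes tested, and CACCCCAC in 1 of 13 against 3.97%. In the strict sets called in each pair CCAAT was in 44.3% of higher and 43.3% of lower genes. In the promoters shown every CCAAT match lay on the strand opposite to the gene, where it reads ATTGG.

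Sterol uptake and regulation genes followed in part, with 9 of 18 shared higher and 1 lower. Insig1, a sterol-regulated retention protein, averaged 16975 in PSC, 8283 in MSC, 4509.9 in PP1 and 3718 in PP2 (2.88-fold, adjusted p = 3.4e-09), and Srebf2 5112 in PSC, 5055 in MSC, 2929.8 in PP1 and 3081 in PP2 (1.69-fold, adjusted p = 1.5e-08). Of 15 fatty acid synthesis genes 8 were shared higher and 1 lower, including the neighbours Scd1 (3.31-fold, adjusted p = 1.69e-11) and Scd2 (3.07-fold, adjusted p = 9.17e-12), which encode stearoyl-CoA desaturases, and Fasn, the fatty acid synthase (2.49-fold, adjusted p = 4.86e-08). Of 29 glycolysis and hypoxia genes 16 were shared higher and 2 lower (median 0.63). Slc2a1, a glucose transporter, averaged 5518 in PSC, 1983 in MSC, 821 in PP1 and 930.2 in PP2 (3.94-fold, adjusted p = 5.34e-08), and Pfkl, a phosphofructokinase, 2997 in PSC, 1483 in MSC, 655 in PP1 and 658 in PP2 (3.21-fold, adjusted p = 4.65e-09). Here too PSC were apart from MSC, with 14 genes higher in PSC and 1 higher in MSC.

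**Figure D3:**
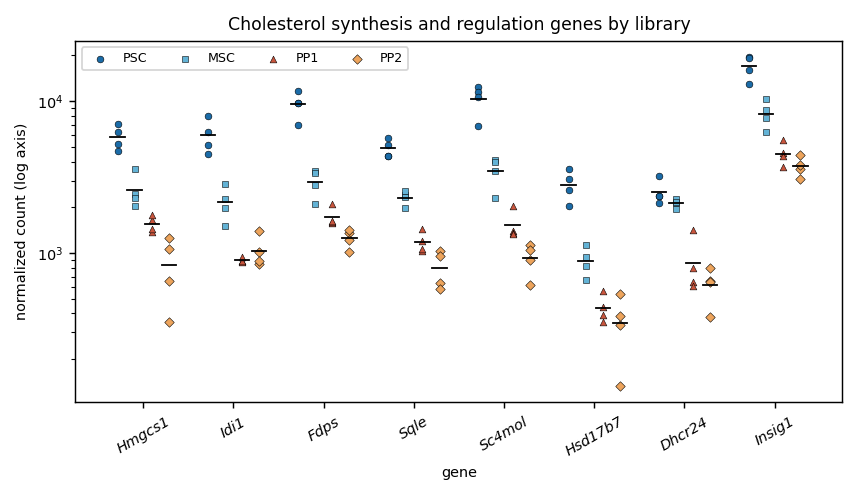
Each point is the normalized count of a gene in 1 library on a log axis, for 8 cholesterol synthesis and regulation genes, with a bar at each group's mean (n = 4). PSC means lie highest and MSC second for every gene shown, above both progenitor sorts.

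Immediate early genes, which many stimuli and the enzymatic release of cells from tissue can induce, were higher in both stem sorts. Of 31 genes 24 were shared higher and 0 lower (median 1.38), 21 of them in each pair. Fos, an AP-1 subunit, was 53010.0, 49035, 49419 and 42182 in PSC and 54655, 48259, 71139.6 and 54569.9 in MSC. It was 24025, 18689, 25268 and 14873 in PP1 and 22153, 15900.2, 23841 and 18903 in PP2 (2.6-fold, log2 difference 1.38 ± 0.11, adjusted p = 1.48e-08). No progenitor library reached a stem library. Atf3, a stress-induced factor, ran from 1782 to 9149 (median 3311) in the 8 stem libraries and from 227 to 985 (median 549) in the 8 progenitor libraries (6.55-fold, log2 difference 2.71 ± 0.27, adjusted p = 1.96e-07). Zfp36, which encodes the RNA-decay protein tristetraprolin, averaged 19069 in PSC, 17933 in MSC, 4516 in PP1 and 3474 in PP2 (4.7-fold, adjusted p = 1.42e-09), and Socs3, a feedback inhibitor of cytokine receptors, 19206 in PSC, 17595 in MSC, 6262 in PP1 and 7096 in PP2 (2.8-fold, adjusted p = 1.57e-07). Of the 14 Krüppel-like factor genes 7 were shared higher and 1 lower, Klf14 being the lower one.

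Of 18 IGF pathway genes 9 were shared lower and 4 higher. Igf1, the growth factor itself, was 424, 423, 586 and 187 in PSC and 394, 509, 419 and 176 in MSC. It was 9518, 7771, 5587 and 6704 in PP1 and 9698, 6236, 6258 and 5323 in PP2 (19.2-fold, log2 difference -4.26 ± 0.23, adjusted p = 3.32e-11). Binding proteins were lower too, Igfbp3 at 839 in PSC, 1051 in MSC, 11448 in PP1 and 14479.7 in PP2 (14.2-fold, adjusted p = 4.77e-12) and Igfbp4 at 12504 in PSC, 16578 in MSC, 49880.5 in PP1 and 52260.1 in PP2 (3.57-fold, adjusted p = 2.02e-11), whereas the receptor substrates Irs1 and Irs2 were shared higher. Of 18 PDGF and VEGF genes 9 were shared lower and 3 higher, the higher ones being Pdgfa, Vegfa and Angpt1, with Angpt1 no longer called without PSC replicate 1 (adjusted p = 0.0547), without PP2 replicates 1 and 3 (0.124) or with voom (0.0583). Vegfa averaged 664 in PSC, 690.4 in MSC, 324 in PP1 and 332 in PP2 (2.13-fold, adjusted p = 0.00442). Among FGF receptors and ligands (2 of 12 shared higher, 3 lower) Fgfr3 was higher, and among 13 feedback genes (1 higher, 2 lower) Spry1, an inhibitor of receptor signalling, averaged 127 in PSC, 267 in MSC, 1372 in PP1 and 2147 in PP2 (9.3-fold, adjusted p = 6.02e-12). The shares were 16.7% higher and 25% lower for receptors and ligands, and 7.69% and 15.4% for feedback genes. Over all genes tested they were 17.9% and 13.2%.

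Of 39 BMP and TGF-beta genes 11 were shared higher and 10 lower. Ligands went both ways: Bmp2 averaged 3151 in PSC, 2937 in MSC, 672 in PP1 and 754 in PP2 (4.22-fold, adjusted p = 1.89e-09) and Bmp6 was 3.44-fold higher (adjusted p = 7e-06), while Bmp4 averaged 276 in PSC, 424 in MSC, 1511 in PP1 and 1804 in PP2 (5.02-fold lower, adjusted p = 2.53e-08). Antagonists did so too, Nog being 3.97-fold higher (adjusted p = 1.52e-06) and Fst and Chrd 4.56-fold and 2.26-fold lower (adjusted p = 1.35e-06 and 2.8e-06). The inhibitory Smad7 was 3.33-fold higher (adjusted p = 6.79e-08). Of 30 Wnt ligand and receptor genes 8 were shared higher and 9 lower. Wnt4 averaged 2191 in PSC, 1060.0 in MSC, 333 in PP1 and 194 in PP2 (6.47-fold, adjusted p = 1.14e-08) and Wnt5b 8364 in PSC, 2626 in MSC, 1597 in PP1 and 1179 in PP2 (3.39-fold, adjusted p = 4.46e-10), both ligands known from growth plate chondrocytes. The R-spondins, which amplify Wnt signals, were opposed: Rspo3 averaged 707 in PSC, 431 in MSC, 157 in PP1 and 112 in PP2 (adjusted p = 5.08e-06) and Rspo2 2.92 in PSC, 10.1 in MSC, 236 in PP1 and 220.5 in PP2 (adjusted p = 8.12e-07). Of 20 antagonists and targets 7 were shared higher and 5 lower, with Frzb, a secreted Wnt binder of cartilage, higher (2.39-fold, adjusted p = 1.4e-10) and Dkk2 lower (10.1 in PSC, 32.1 in MSC, 619.6 in PP1 and 527 in PP2, adjusted p = 6.86e-07). Of 16 Notch genes 3 were shared higher and 0 lower, and among them the target Hes1 differed 1.47-fold (adjusted p = 0.00696). The Notch share of 18.75% higher was near the 17.9% over all genes tested, where 13.2% were lower.

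Patterning genes were lower more often than higher. Of 34 homeobox and limb transcription factor genes 10 were shared lower and 2 higher, and 13 and 1 with edgeR. Twist1 and Twist2, which hold back osteoblast differentiation in mouse, were 2.19-fold and 7.37-fold lower (adjusted p = 1.58e-05 and 1.1e-05), and Osr2, a factor of joint and tendon mesenchyme, averaged 148 in PSC, 618 in MSC, 1078 in PP1 and 1324 in PP2 (3.96-fold, adjusted p = 8.35e-09). Of 29 guidance genes 7 were shared higher and 6 lower (24.1% and 20.7%, against 17.9% and 13.2% over all genes tested). Unc5b, a netrin receptor, averaged 6389 in PSC, 3962 in MSC, 1174 in PP1 and 1182 in PP2 (4.22-fold, adjusted p = 2.15e-11), and its ligand Ntn1 was 3.23-fold lower (adjusted p = 8.72e-10). Of 18 retinoid genes 10 were shared lower and 1 higher. Aldh1a2, which makes retinoic acid, averaged 11.6 in PSC, 14.5 in MSC, 242 in PP1 and 644 in PP2 (adjusted p = 1.28e-06), and the binding protein gene Crabp1 260.4 in PSC, 51.6 in MSC, 935 in PP1 and 564 in PP2 (adjusted p = 7.33e-08). The receptor Rarg was the shared higher member (1.29-fold, adjusted p = 0.000639).

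Of 29 cell cycle genes 10 were shared lower and 2 higher (median -0.48), and 13 lower and 1 higher with edgeR. The calls lay mainly in PSC, where 17 genes were lower than in PP1 and 15 lower than in PP2, against 3 and 3 in MSC. Over all 13797 genes tested the same counts were 2077 and 2098 in PSC and 1225 and 1280 in MSC. The MSC counts of the list were therefore near the share over all genes. Cdk4, a kinase of entry into the cycle, ran from 4979 to 6254 (median 5921) in the 8 stem libraries and from 7366 to 9142 (median 7952) in the 8 progenitor libraries (1.39-fold, log2 difference -0.48 ± 0.07, adjusted p = 1.71e-05). The higher genes were Ccnd1 and Cdk6, of which Ccnd1 lay at the threshold (adjusted p = 0.0485) and lost its call in 20 of 28 alternative settings, most of the libraries left out in turn among them (up to 0.103, without PP2 replicate 4). Mki67, a marker of cycling cells, did not pass, with means of 20.3 in PSC, 300.0 in MSC, 170.4 in PP1 and 114 in PP2 (adjusted p = 0.368). Of 10 inhibitor genes 3 were shared higher and 0 lower. Cdkn1a, which encodes the inhibitor p21, ran from 5018 to 14638 (median 7966) in the 8 stem libraries and from 1942 to 2915 (median 2469.8) in the 8 progenitor libraries (3.55-fold, log2 difference 1.83 ± 0.12, adjusted p = 4.84e-10). Cdkn1c, which encodes its relative p57, passed but did not share a direction, at 95787 in PSC, 36896 in MSC, 49450.4 in PP1 and 53122 in PP2, and lost the call without PSC replicate 2, MSC replicate 1 or 2, or PP1 replicate 2 (adjusted p = 0.0511 to 0.0667) and in a fit of 2 groups of 8 (0.542).

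Immune, adipogenic and housekeeping lists are given beside the shares over all genes tested, 17.9% higher and 13.2% lower. None of these lists exceeded the share of higher genes. Shared lower were 50% of class I presentation, 35.3% of interferon response and 28.6% of complement genes. The lower share was 26.7% for chemokine and niche, 33.3% for adipogenic and 25% for respiratory chain genes, and 0% for ribosomal protein genes. Of 12 class I presentation genes 6 were shared lower and 2 higher, with B2m, the light chain of class I molecules, 2-fold lower (adjusted p = 2.07e-08). H2-K1, a class I heavy chain, went the other way (2.89-fold higher, adjusted p = 3.42e-08), and reads of these related genes may be split. Of 17 interferon response genes 6 were shared lower and 2 higher, led by Ifitm3 (4.19-fold, adjusted p = 1.03e-10). Of 14 complement genes 4 were lower, with Serping1, the C1 inhibitor, at 399.8 in PSC, 406 in MSC, 5064 in PP1 and 4999 in PP2 (12.4-fold, adjusted p = 8.15e-13), and 2 higher. Of 15 chemokine and niche genes 4 were lower and 2 higher (1 with edgeR). Of 15 adipogenic genes 5 were lower and 2 higher, among them Ebf2 (10.2-fold, adjusted p = 3.35e-06) lower. None of 30 ribosomal protein genes was shared, and they spanned log2 differences of -0.22 (Rplp0) to 0.17 (Rps6), the latter passing without MSC replicate 3 (adjusted p = 0.0206). Of 28 nuclear genes of the respiratory chain 7 were shared lower and 2 higher, the largest being Ndufa1 (1.56-fold, adjusted p = 0.000479).

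**Figure D4:**
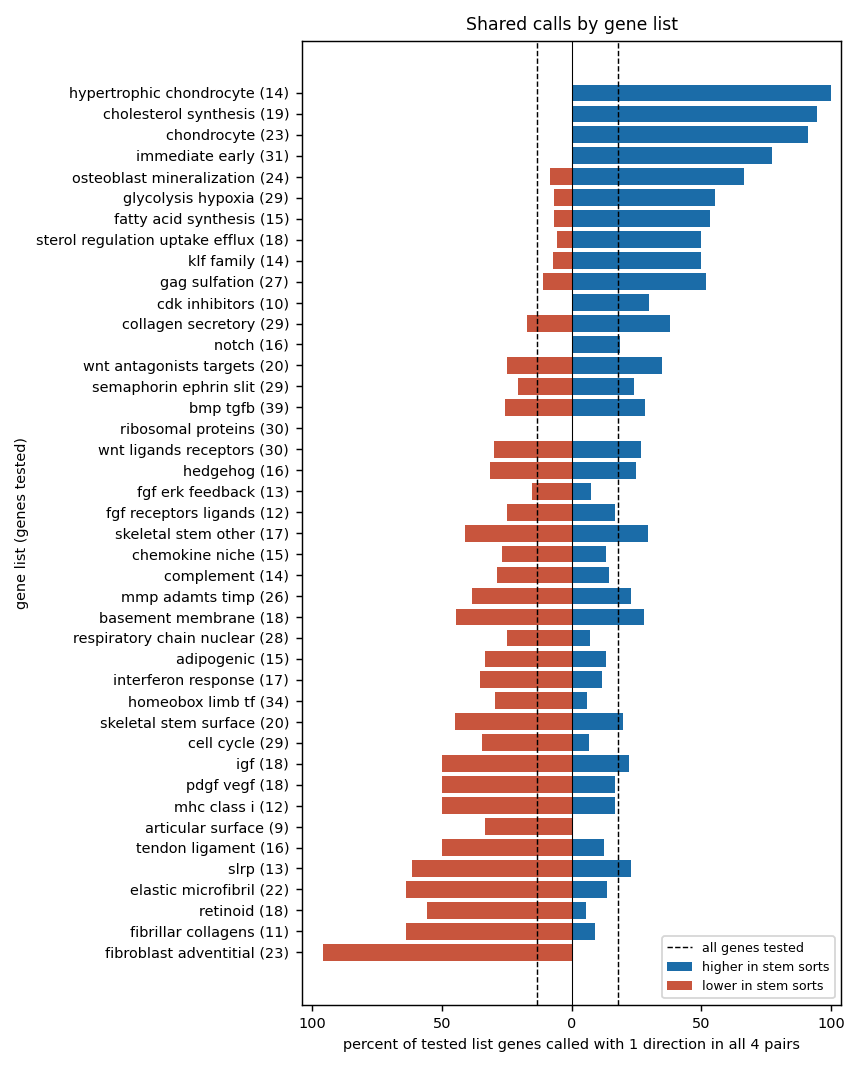
Bars give, for each list of at least 9 tested genes, the percent of its tested genes called with the same direction in all 4 pairs, higher in stem sorts to the right and lower to the left. Broken lines mark the shares over all genes tested, 17.9% higher and 13.2% lower. Hypertrophic chondrocyte, cholesterol synthesis and chondrocyte genes reach furthest right and fibroblast genes furthest left.

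Markers of other cells were read beside these results. The Schwann and neural crest list had 9 of 10 genes shared higher and 0 lower, 4 of them in each pair. Against PP1, 5 genes passed as higher and 1 as lower in PSC, and 9 and 0 in MSC. The list had sums of 8007 to 9727 in PSC, 18579.5 to 28221 in MSC, 2720.3 to 5793 in PP1 and 2545 to 3664 in PP2. The highest values were those of MSC, where Sox10, a factor of that lineage, averaged 1803 against 72.4 in PSC. Foxd3, without a read in any progenitor library, averaged 802 in MSC and 9.2 in PSC. Of 10 osteoclast genes 5 were lower and 0 higher, with sums of 6160.0 to 7305 in PSC, 12231 to 14203 in MSC, 16637 to 33817 in PP1 and 11023 to 14218 in PP2. Ctsk is on this list and among its lower genes, and it made up a large part of the sums in PP1 and PP2. Acp5, which encodes tartrate-resistant acid phosphatase, averaged 244 in PSC, 220.0 in MSC, 3448 in PP1 and 687 in PP2, so that PP1 carried most of it. Muscle genes were lower in 5 and higher in 1 of 8 cases, with sums of 1496 to 3394 in PSC, 1002 to 2401 in MSC, 1339 to 3421 in PP1 and 4170.1 to 8620.0 in PP2. Acta1, skeletal muscle actin, averaged 41.8 in PSC, 69.4 in MSC, 1090.0 in PP1 and 2826 in PP2 (31.4-fold, adjusted p = 6.31e-11).

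The remaining marker lists are given as counts, beside the shares over all genes tested, 17.9% higher and 13.2% lower. The counts were 1 higher and 0 lower of 11 tested for macrophages, 2 higher and 0 lower of 11 tested for endothelium, 2 higher and 3 lower of 12 tested for pericytes and smooth muscle, and 1 higher and 0 lower of 7 tested for erythroid cells. Neutrophil, lymphoid and adipocyte lists had no shared gene among 6, 1 and 4 tested. Endothelial sums were 222 to 1479.6 in PSC, 1498 to 2451 in MSC, 326 to 1878 in PP1 and 347 to 639.7 in PP2. Macrophage sums were 290.1 to 561 in PSC, 383 to 626 in MSC, 815 to 1632 in PP1 and 172 to 592 in PP2, and 4 of its 14 genes had no read in PSC, 2 none in PP1 and 3 none in PP2. Sums for pericytes and smooth muscle were 17120.2 to 21683 in PSC, 38331 to 48220.5 in MSC, 19286 to 27628 in PP1 and 16929.5 to 18705 in PP2. For neutrophils they were 53.6 to 2968 in PSC, 6.84 to 806 in MSC, 19.7 to 4295 in PP1 and 57 to 2921 in PP2, and for erythroid cells 951 to 5415 in PSC, 75.3 to 1403 in MSC, 565 to 9877 in PP1 and 335 to 4109 in PP2. Adipocyte sums were 613 to 1094 in PSC, 1578 to 3173 in MSC, 1199.9 to 2373 in PP1 and 121 to 493 in PP2, and lymphoid sums 0 to 71.4 in PSC, 13.7 to 22.1 in MSC, 0 to 22.4 in PP1 and 0 to 118 in PP2, with 3 of 8 lymphoid genes at 0 in all libraries. The part of these cells in the results was not tested.

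**Figure D5:**
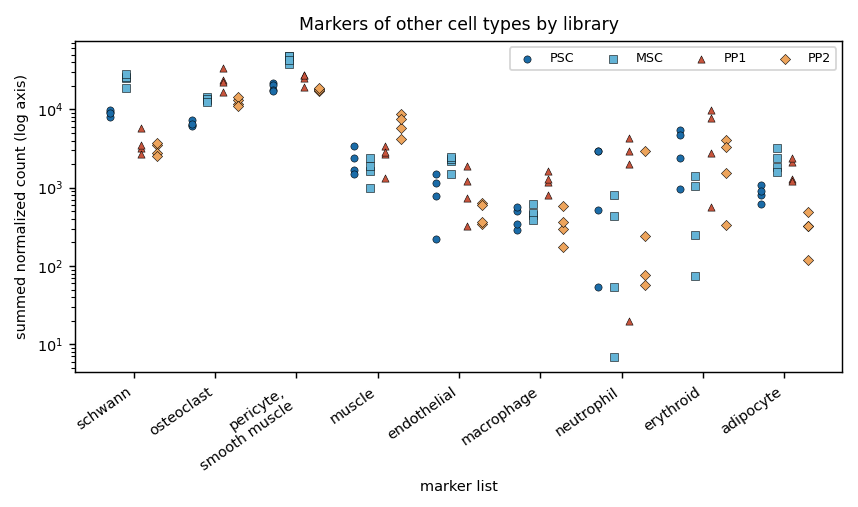
Each point is 1 library's summed normalized count over a marker list, on a log axis. Schwann sums are highest in MSC, osteoclast sums in PP1 and muscle sums in PP2, while erythroid and neutrophil sums vary widely within every group. The osteoclast list includes Ctsk.

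A gene shared between the stem sorts was not always at 1 level in them. Of the 2464 shared higher genes 558 also differed between the stem sorts with PSC above MSC and 170 with MSC above PSC, and 1736 did not pass there. Of the 1822 shared lower genes 479 had MSC above PSC and 117 the reverse. Over all genes tested 3630 (26.3%) passed between PSC and MSC. Where a difference between the stem sorts passed, PSC was therefore more often the sort further from the progenitors. In PSC, Ihh stood 4.51-fold above its MSC level (adjusted p = 0.000139) and Pth1r 2.71-fold (adjusted p = 7.84e-07). Col10a1 did not pass between them (adjusted p = 0.412). Sox9 and Fos did not either (adjusted p = 0.843 and 0.338). The comparisons share the PSC and MSC libraries, so this is a description of levels and not independent evidence.

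Some genes of the strict set lie near each other in the genome (GENCODE M21, GRCm38, 1-based). Runs of at least 3 such genes of 1 direction, each within 200000 bases of the next, numbered 28. Genes outside the strict set did not break a run, and how many runs chance gives was not tested. They included Serpina1b, Serpina1d and Serpina1a (all higher, 103728156 to 103863562 on chromosome 12), Ly6e, Ly6a and Ly6c1 (all lower, 74955051 to 75048830 on chromosome 15), and Ctsk, Golph3l, Adamtsl4 and Ecm1 (all lower, 95499256 to 95739569 on chromosome 3). Of the landmark genes, Ihh lies on chromosome 1, 74945315 to 74951672, Col10a1 on chromosome 10, 34389981 to 34397085, Dpt on chromosome 1, 164796644 to 164824266, Cd34 on chromosome 1, 194938819 to 194961279 and Igf1 on chromosome 10, 87858265 to 87937042.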

How the data were processed

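RNA of 16 libraries was sequenced on a HiSeq4000 after RNeasy Plus Micro extraction and TruSeq RNA library preparation, per the labels' protocols. Per the submitters' processing notes, the build was mm10 and the tools included TopHat2 2.0.11 and bcl2fastq 2.17, HTSeq 0.6.1 and cutadapt, and DESeq2 1.6.3, in no stated order. Whether reads were counted by strand, and with which annotation, is not given in the sources used here. Signal values in the 1 table the authors deposited are gene read counts divided by 1 size factor per library: all values (100%) were whole multiples of a library's step within 1e-06, and dividing by it recovered whole reads. The values are not raw counts, so the limma plan was used in place of the count test.

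Genes at 10 or more in at least 4 libraries were kept. log2(value + 1) was fitted with limma 3.58.1 (R 4.3.3), with an intensity trend and group as the only term, and the mean of PSC and MSC was compared with that of PP1 and PP2. P-values were adjusted by Benjamini-Hochberg over 13797 genes at a threshold of 0.05, with no minimum fold. Folds are differences of group means on this log2(value + 1) scale: adding 1 pulls low values together, while libraries at or near 0 pull a group's log mean down and can make the fold exceed the ratio of mean counts. The ± after a log2 difference is its SE. A fold against groups without a read is a lower bound against 3 reads per library, covering counting error only. The procedure was tested on simulated data.

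Members and lists were chosen with earlier results of these data known. Ranked genes passed in each pair, did not overlap, had a mean of at least 200 in both higher groups and a unique symbol, 12 per direction by the smallest pair difference. Each of the 54 lists offered its 4 or fewer best members by adjusted p as candidates; other genes named were chosen after their values were seen, except Ctsk, Cd200, Eng, Thy1, Enpep, Itgav, Ihh and Col2a1, which were always considered. Mitochondrially encoded genes were not analysed here, and some genes are not reported here. Alternatives used edgeR 4.0.16, DESeq2 1.42.0 and voom on recovered reads, other pseudocounts and filters, TMM, a replicate block, 2 groups of 8, and libraries left out. Promoters are from RefSeq.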

Additional observations from a re-analysis of the deposited data

Results flagged for a closer look

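Some groups of the 24 ranked genes held 1 library whose gap to its nearest neighbour took a share of the group's range on the log2 scale that exceeds Dixon's 95% critical value, as chance alone gives in about 1 of 20 groups. Among the higher genes these were Irx5 in MSC (highest value 809, share 0.951), Irx5 in PP2 (lowest value 0, share 0.883), F5 in PP1 (lowest value 0, share 0.926), Fabp7 in PSC (highest value 639, share 0.900), Matn1 in PSC (highest value 315400.0, share 0.831), Alpl in PSC (highest value 18870.0, share 0.833) and Car8 in PP2 (highest value 707, share 0.900). Among the lower genes they were Dpt in PSC (lowest value 0, share 0.893), Clec3b in PSC (lowest value 65.4, share 0.873), Col6a6 in PSC (highest value 18.6, share 1.000) and Spink2 in PSC (lowest value 0, share 0.895). Most of the low values are at or near 0 reads. All these genes were ranked among genes whose stem and progenitor libraries do not overlap.

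The effect against the progenitor sorts differed between PSC and MSC for 4 ranked genes, by the test of PSC against MSC in limma. Matn1 was higher in PSC (log2 difference 1.30, adjusted p = 0.0162), as were Car8 (0.97, adjusted p = 0.00905) and Mfap5 (1.09, adjusted p = 0.0167). Col6a6 was lower in PSC (-3.50, adjusted p = 0.00233), at values near 0 in both.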

How the results depend on the processing

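The counts of genes called, shared, and called in each pair stayed within 1.5 times under all 28 alternatives in which they could be had. Called genes numbered 3858 in a fit of 2 groups of 8 and 5410 with voom, and ran from 4383 to 5087 when 1 library was left out. Shared genes then ran from 3852 to 4417, genes called in each pair from 945 to 1206, and shared genes that also differ between PSC and MSC from 1047 to 1443. The last count moved from 1324 to 2223 with voom, and the cause was not tested. Of calls, 58.4% were higher in stem sorts, 53.4% with edgeR, 52.3% with DESeq2 and 52% among genes with a read in all 16 libraries. Of 8539 checks of named genes under alternatives, 8409 kept direction and side of the threshold, 105 lost a call, 25 gained one and 0 reversed.

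The main fit did not use the replicate numbers, and whether they pair the libraries was not tested. Same-numbered libraries of 2 groups correlated in their deviations at -0.018 to 0.149, mostly above 0. Differently numbered libraries of 2 groups correlated at -0.092 to 0.053. A fit with the replicate block called 5266 genes, 4442 of them shared and 1328 in each pair, with 1487 shared genes differing between PSC and MSC. Genes near 0 reads in a sort are limited by depth, and more tested genes are at 0 in the progenitor sorts than in MSC.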

Other observations

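Several genes outside the lists above were chosen after their values were seen and are given as values. Nfkbia, which encodes an inhibitor of NF-kappaB, averaged 5084 in PSC, 4490.0 in MSC, 2214 in PP1 and 2052 in PP2 (2.18-fold, adjusted p = 8.58e-05), Nfkbiz 2150.1 in PSC, 2648 in MSC, 631 in PP1 and 476 in PP2 (4.19-fold, adjusted p = 1.1e-05), and Tnfaip3, which encodes the enzyme A20, 377 in PSC, 413 in MSC, 101 in PP1 and 93.2 in PP2 (4.6-fold, adjusted p = 0.00126). Foxa3, a forkhead factor that acts with Foxa2 in mouse chondrocyte hypertrophy, averaged 2468 in PSC, 1076 in MSC, 176 in PP1 and 221 in PP2 (8.24-fold, adjusted p = 6.92e-10), and Serpina1a, the third neighbour on chromosome 12, 164 in PSC, 107 in MSC, 0 in PP1 and 1.1 in PP2 (adjusted p = 1.23e-06). F13a1, a subunit of clotting factor XIII, averaged 5602 in PSC, 3170.2 in MSC, 1104 in PP1 and 1842 in PP2 (3.25-fold, adjusted p = 3.98e-06). Vdr, the vitamin D receptor, averaged 1476 in PSC, 1925 in MSC, 423 in PP1 and 529.8 in PP2 (3.78-fold, adjusted p = 3.16e-07), and Trpv4, a calcium channel of chondrocytes, 6458 in PSC, 7610.4 in MSC, 2996 in PP1 and 3174 in PP2 (2.29-fold, adjusted p = 3.2e-09).

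Hpgd, which breaks prostaglandins down, averaged 3409 in PSC, 1598 in MSC, 499 in PP1 and 235 in PP2 (7.02-fold, adjusted p = 8.35e-09), and Ptges, which makes prostaglandin E, 95.7 in PSC, 140.4 in MSC, 595 in PP1 and 619 in PP2 (5.2-fold, adjusted p = 2.89e-08). The hyaluronan synthase Has2 averaged 2069 in PSC, 1050.1 in MSC, 545 in PP1 and 415 in PP2 (3.21-fold, adjusted p = 4.23e-07), and versican (Vcan), which binds hyaluronan, 235 in PSC, 772 in MSC, 3688 in PP1 and 4138 in PP2 (9.19-fold, adjusted p = 3.75e-12). Of the CCN matricellular genes Cyr61 averaged 41520.5 in PSC, 29844 in MSC, 13424 in PP1 and 13834 in PP2 (2.58-fold, adjusted p = 2.15e-09) and Nov 2333 in PSC, 989 in MSC, 18194 in PP1 and 16685 in PP2 (11.6-fold, adjusted p = 1.81e-12), in opposite directions. Angiotensin receptor genes were lower in stem sorts, Agtr2 at 1839 in PSC, 1755 in MSC, 9089 in PP1 and 10989 in PP2 (5.73-fold, adjusted p = 6.93e-11) and Agtr1a at 236 in PSC, 246 in MSC, 735 in PP1 and 860.4 in PP2 (3.66-fold, adjusted p = 5.34e-05). The water channel gene Aqp1 averaged 3750.4 in PSC, 2877 in MSC, 23405 in PP1 and 18205 in PP2 (6.49-fold, adjusted p = 1.23e-10), the receptor kinase gene Axl 1709 in PSC, 2529 in MSC, 8486 in PP1 and 9274 in PP2 (4.4-fold, adjusted p = 1.73e-09), the growth factor gene Ptn 509 in PSC, 943 in MSC, 6574 in PP1 and 5663 in PP2 (8.62-fold, adjusted p = 5.2e-12) and Il11ra1, the interleukin-11 receptor, 2415 in PSC, 2279.7 in MSC, 6975 in PP1 and 8049 in PP2 (3.19-fold, adjusted p = 2.61e-10).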
